A study of Mus musculus with 2 samples.

Results

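Signaling by bone morphogenetic proteins (BMPs) and transforming growth factor beta (TGF-beta) was described in embryonic mouse hindbrain through 43 genes. They comprised 14 ligand genes, 12 receptor genes, 8 Smad genes, 5 inhibitor genes and 4 Id genes. The genes were chosen by name, though with earlier results of these data known. All 43 were matched by symbol among 43346 genes with Ensembl identifiers in the deposited tables. The ligands are secreted dimers that bring type II and type I receptor kinases together, and the type I receptor then phosphorylates receptor Smads. BMPs act mainly through Smad1, Smad5 and Smad9, whereas TGF-betas and activins act mainly through Smad2 and Smad3, and both sets enter the nucleus with the common Smad4. In the developing hindbrain, BMPs from the roof plate pattern dorsal progenitors, and Id genes are direct BMP targets whose products hold back neuronal differentiation.

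RNA longer than 200 bases was sequenced from the hindbrain of healthy B6NCrl mouse embryos at day 16.5 of development. A single group was sampled in 2 biological replicates, both pools of male and female tissue, and 37 embryos went into replicate 2. The number of embryos in replicate 1 is not given, no genetic change or treatment is named in the labels, and pooling hides the spread between embryos. Depth was alike, at 42467811 expected counts for replicate 1 and 42017008 for replicate 2. Permutation of 2 libraries cannot give a p under 0.5, so values and their spread are given without a test. Levels are in TPM, a relative abundance corrected for transcript length, and the authors deposited an interval beside each level, whose confidence level is not stated in the file header.

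The tissue label was checked against marker genes. Of 12 hindbrain markers, 11 reached 1 TPM in both replicates, led by Meis1 at 153.82 TPM in replicate 1 and 153.74 TPM in replicate 2. Of 12 forebrain markers, 2 did, namely Neurod6 and Lhx2. The pools stood apart for other tissues, since the 12 markers of skeletal muscle and cartilage summed to 330.0 TPM in replicate 1 and 65.3 TPM in replicate 2, and the 12 forebrain markers to 62.2 TPM in replicate 1 and 34.4 TPM in replicate 2. Of the muscle and cartilage sums, Sox9, also a glial marker, gave 44.67 TPM in replicate 1 and 38.61 TPM in replicate 2. Of the forebrain sums, Neurod6 gave 33.42 TPM in replicate 1 and 27.96 TPM in replicate 2. Lhx2 gave 7.68 TPM in replicate 1 and 5.64 TPM in replicate 2. These genes made up nearly all of the forebrain sum in replicate 2. The median of the 12 forebrain markers was 1.725 TPM in replicate 1 and 0.05 TPM in replicate 2. In bulk tissue, fewer cells of a type and less RNA per cell cannot be told apart.

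Promoter windows of Id4 and Smad6 are shown because Id4 was the member that differed most between the pools, and because Smad6 was the member whose window held the longer of the motifs searched. Each window runs from 250 bases before to 4 bases after the RefSeq start on GRCm38.p6, and 30 of the 43 genes had one. Capitals mark GGCGCC, a GC-rich element bound by BMP Smads, or GTCTAGAC, the palindromic Smad-binding element. Both motifs read the same on either strand and do not overlap each other. The Id4 window is chr13:48260866-48261119 on the plus strand, and the Smad6 window is chr9:64022056-64022309 on the minus strand.
Id4: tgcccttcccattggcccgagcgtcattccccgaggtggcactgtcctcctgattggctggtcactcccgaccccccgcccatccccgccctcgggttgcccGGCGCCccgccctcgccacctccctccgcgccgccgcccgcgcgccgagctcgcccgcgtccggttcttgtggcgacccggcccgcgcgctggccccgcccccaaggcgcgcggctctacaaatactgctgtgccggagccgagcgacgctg
Smad6: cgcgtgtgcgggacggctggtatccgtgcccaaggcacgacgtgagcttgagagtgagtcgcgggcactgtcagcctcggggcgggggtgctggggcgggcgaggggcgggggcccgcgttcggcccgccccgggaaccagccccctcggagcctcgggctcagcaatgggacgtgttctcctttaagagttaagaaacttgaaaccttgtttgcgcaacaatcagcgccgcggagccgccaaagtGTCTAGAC
The Id4 window held GGCGCC once, at bases 103 to 108 from its 5′ end. That motif was found in a window of 9 of the 30 member genes, namely Bmpr1a, Bmpr2, Chrd, Grem1, Id2, Id4, Smad5, Smad9 and Tgfbr1. Of all 32851 promoter windows of the same length, 9.68% held it. The count of members is of genes, which can have several windows, and the percentage is of windows, so they are not like for like. GTCTAGAC was found in 0.1705% of all windows and, among members, in that of Smad6, where it spans the transcription start. A match describes these letters only and is not a measured binding site.

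Most of the pathway was expressed. A level of 1 TPM was reached in both replicates by 38 of the 43 genes (88.4%), against 63.5% of all 21474 protein-coding genes. The genes below that level were the ligand genes Tgfb1, Mstn and Gdf7, the receptor gene Acvr1c and the Smad gene Smad9. Levels differed between the roles. The median of the 4 Id genes was 127.57 TPM in replicate 1 and 123.11 TPM in replicate 2. Median receptor levels were lower, at 10.19 TPM in replicate 1 and 8.45 TPM in replicate 2, and median Smad levels were 8.26 TPM in replicate 1 and 7.01 TPM in replicate 2. Inhibitors stood at 3.02 TPM in replicate 1 and 2.36 TPM in replicate 2, and ligands at 2.47 TPM in replicate 1 and 2.29 TPM in replicate 2. The order of the 5 medians was thus the same in both libraries. Over all 43 genes the median was 5.44 TPM in replicate 1 and 4.79 TPM in replicate 2, below that of all protein-coding genes, which was 5.97 TPM in replicate 1 and 5.50 TPM in replicate 2. The 13630 protein-coding genes at 1 TPM or more in both replicates had a much higher median, at 20.1 TPM in replicate 1 and 18.8 TPM in replicate 2. Members of a class are not replicates, so classes were not tested against each other.

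**Figure D1:**
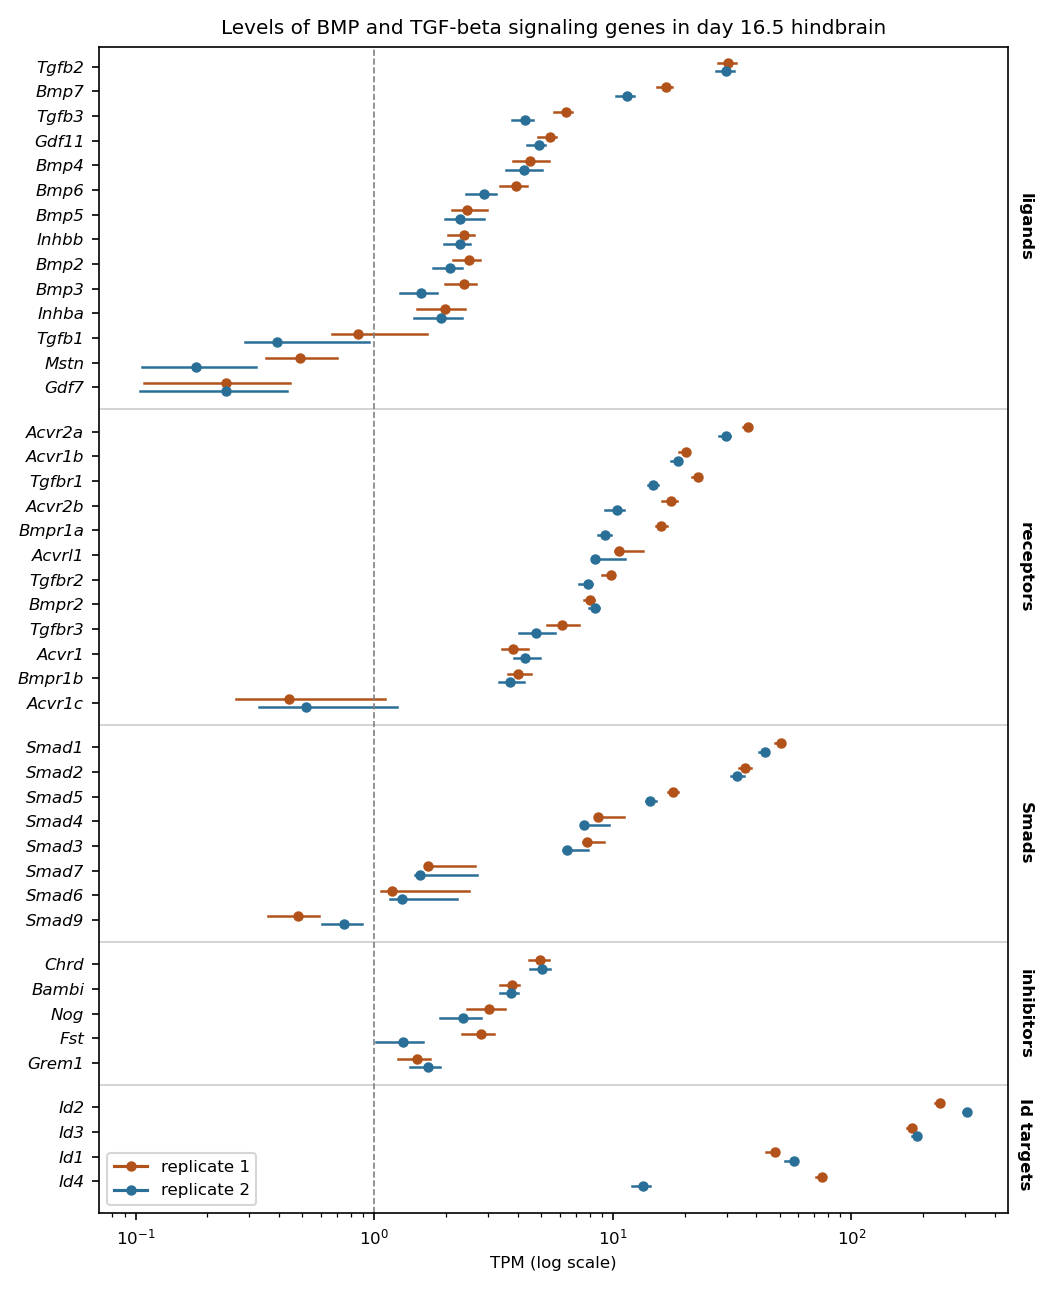
Level of each of the 43 genes in TPM on a log scale, with replicate 1 in orange and replicate 2 in blue; points are the deposited TPM, horizontal lines the deposited intervals, and the dashed line marks 1 TPM. Id2 and Id3 lie farthest right, with Id2 at 234.72 TPM in replicate 1 and 305.35 TPM in replicate 2, and 5 genes lie left of the dashed line in both replicates.

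Over all transcripts, Tgfb2 was the most abundant ligand gene, at 30.36 TPM in replicate 1 and 29.84 TPM in replicate 2. It is a TGF-beta isoform made by many embryonic tissues, and its gene lies on chromosome 1, at 186622792 to 186705989 on the minus strand. The replicates were nearly equal and their intervals overlapped. Bmp7, which encodes a BMP of meninges, choroid plexus and roof plate, had 16.73 TPM in replicate 1 and 11.44 TPM in replicate 2. Tgfb3, the third TGF-beta isoform, had 6.34 TPM in replicate 1 and 4.28 TPM in replicate 2. For both genes replicate 1 was higher and the intervals did not overlap. Tgfb2 stood above Bmp7, and Bmp7 above Tgfb3, with intervals apart in both libraries, while Tgfb3 and Gdf11 were not separated. The first of these steps depended on noncoding transcripts. In protein-coding transcripts alone Tgfb2 had 13.53 TPM in replicate 1 and 12.97 TPM in replicate 2, and Bmp7 had 14.38 TPM in replicate 1 and 9.62 TPM in replicate 2, so that their order differed between the libraries.

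From Tgfb3 down to Gdf7, no neighbouring ligand genes in the order were apart in both libraries. Gdf11, a regulator of neurogenesis and axial patterning, had 5.44 TPM in replicate 1 and 4.89 TPM in replicate 2. Bmp4, a roof plate BMP, had 4.52 TPM in replicate 1 and 4.24 TPM in replicate 2. Bmp6 had 3.93 TPM in replicate 1 and 2.89 TPM in replicate 2, with intervals apart. Bmp6 shares 224 of its 3900 exonic bases with Txndc5 on the opposite strand, a gene at 88.95 TPM in replicate 1 and 78.83 TPM in replicate 2, and whether counting used strand is not given. Bmp2, Bmp3 and Bmp5, and the activin subunit genes Inhba and Inhbb, ranged from 1.57 TPM for Bmp3 in replicate 2 to 2.50 TPM for Bmp2 in replicate 1. Bmp3, whose product opposes other BMPs, was the one of these 5 with intervals apart, at 2.37 TPM in replicate 1 and 1.57 TPM in replicate 2.

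Tgfb1, the TGF-beta isoform of immune and endothelial cells, was low, at 0.86 TPM from 38 counts in replicate 1 and 0.39 TPM from 17 counts in replicate 2. The intervals of its replicates overlapped, and those of Mstn did not. Mstn, which encodes the muscle growth inhibitor myostatin, had 0.49 TPM from 32 counts in replicate 1 and 0.18 TPM from 12 counts in replicate 2. Gdf7, a roof plate ligand of the BMP group, had 0.24 TPM from 8 counts in each replicate. A 2-fold difference was not detectable for Gdf7 at this depth, since its count ratio of replicate 1 over replicate 2 had a 95% counting interval from 0.324 to 3.03. Such exact binomial intervals cover counting error only.

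Summed by group, the 3 TGF-beta genes had 37.56 TPM in replicate 1 and 34.51 TPM in replicate 2, and the 7 BMP-group genes had 32.73 TPM in replicate 1 and 24.74 TPM in replicate 2. That order was turned round in protein-coding transcripts alone, where the TGF-beta genes summed to 20.57 TPM in replicate 1 and 17.54 TPM in replicate 2, and the BMP-group genes to 30.05 TPM in replicate 1 and 22.57 TPM in replicate 2. Related genes were compared within each library by their log2 TPM ratio, and a difference was called where their deposited intervals overlapped in neither library and the sign was the same. Of 30 such comparisons 22 were called. Tgfb2 exceeded Tgfb1 by 52.0-fold (log2 ratio 5.70 ± 0.79, SD, n = 2) and Tgfb3 by 5.78-fold (2.53 ± 0.38, SD, n = 2). Counting protein-coding transcripts alone, these folds were 29.4 over Tgfb1 and 2.54 over Tgfb3. Bmp7 exceeded Bmp4 by 3.16-fold (1.66 ± 0.32, SD, n = 2) and Bmp6 by 4.11-fold (2.04 ± 0.07, SD, n = 2), and Bmp4 exceeded Bmp2 by 1.92-fold. Gdf11 exceeded its close relative Mstn by 17.4-fold, with a log2 ratio of 3.47 in replicate 1 and 4.76 in replicate 2, so that leaving out either library moved the fold by over 1.5 times. Bmp5 and Bmp6, and Inhbb and Inhba, were not separated by this rule.

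The receptor genes with the highest mean levels were Acvr2a, Acvr1b and Tgfbr1. Acvr2a, a type II receptor gene for activins that some BMPs also use, had 36.73 TPM in replicate 1 and 29.80 TPM in replicate 2, with intervals apart and replicate 1 higher. It lies on chromosome 2, at 48814109 to 48903269, and shares 446 of its 5686 exonic bases with Orc4 on the opposite strand, which had 64.61 TPM in replicate 1 and 73.70 TPM in replicate 2. Acvr1b, the activin type I receptor gene, had 20.21 TPM in replicate 1 and 18.72 TPM in replicate 2. Tgfbr1, the TGF-beta type I receptor gene, had 22.72 TPM in replicate 1 and 14.78 TPM in replicate 2. The replicates overlapped for Acvr1b and not for Tgfbr1, and Tgfbr1 was above Acvr1b in replicate 1 and below it in replicate 2, with a log2 ratio of 0.17 in replicate 1 and -0.34 in replicate 2. Acvr1c, the third type I receptor gene of this branch, was near the limit at 0.44 TPM in replicate 1 and 0.52 TPM in replicate 2, so that Acvr1b exceeded it by 40.7-fold (log2 ratio 5.35 ± 0.25, SD, n = 2).

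Among the type I receptor genes of the BMP group, Bmpr1a had 15.92 TPM in replicate 1 and 9.24 TPM in replicate 2, with replicate 1 higher and intervals apart. Its product and that of Bmpr1b are the classical BMP type I receptors, and Bmpr1b had 3.99 TPM in replicate 1 and 3.71 TPM in replicate 2, with intervals that overlapped. Bmpr1a thus exceeded Bmpr1b by 3.15-fold (log2 ratio 1.66 ± 0.48, SD, n = 2), and it also exceeded Acvr1, a further BMP type I receptor gene, in both libraries (log2 ratio 1.58 ± 0.67, SD, n = 2). Acvr1 had 3.83 TPM in replicate 1 and 4.27 TPM in replicate 2. Acvrl1, the endothelial type I receptor gene, had 10.58 TPM in replicate 1 and 8.43 TPM in replicate 2, and the log2 ratio of Acvr1 over Acvrl1 was -1.22 ± 0.34 (SD, n = 2), which puts Acvrl1 2.34-fold higher. The 12 endothelial and pericyte markers, all detected, summed to 309.9 TPM in replicate 1 and 292.6 TPM in replicate 2.

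Bmpr2, the type II receptor gene particular to BMPs, had 8.06 TPM in replicate 1 and 8.46 TPM in replicate 2, with overlapping intervals. The log2 ratio of Bmpr2 over Acvr2a was -2.00 ± 0.26 (SD, n = 2). Acvr2b had 17.62 TPM in replicate 1 and 10.40 TPM in replicate 2, with replicate 1 higher and intervals apart, and Acvr2a exceeded it by 2.44-fold (log2 ratio 1.29 ± 0.32, SD, n = 2). Tgfbr2, the TGF-beta type II receptor gene, had 9.80 TPM in replicate 1 and 7.86 TPM in replicate 2, again with intervals apart. Tgfbr2 and Bmpr2 were not separated in both libraries. The co-receptor gene Tgfbr3, which encodes betaglycan, a presenter of TGF-beta2, had 6.11 TPM in replicate 1 and 4.79 TPM in replicate 2, and lay below Tgfbr2 in both libraries (log2 ratio of Tgfbr3 over Tgfbr2 -0.70 ± 0.02, SD, n = 2).

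Of the 11 steps between neighbouring receptor genes in the order of mean level, 5 were resolved in both libraries. Acvr2a stood above Acvr1b, Tgfbr1 above Acvr2b, Acvrl1 above Tgfbr2, Bmpr2 above Tgfbr3, and Bmpr1b above Acvr1c. Summed over genes, the 4 type I receptors of the BMP group had 0.791 times the TPM of the 3 of the TGF-beta and activin group in replicate 1 and 0.754 times in replicate 2. The sums were 34.32 TPM against 43.37 TPM in replicate 1, and 25.65 TPM against 34.02 TPM in replicate 2. The 4 type II receptor genes summed to 72.21 TPM in replicate 1 and 56.52 TPM in replicate 2.

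Smad levels spanned a wide range. Smad1, a BMP receptor Smad gene on chromosome 8, had 50.61 TPM in replicate 1 and 43.38 TPM in replicate 2. Smad5, of the same group, had 17.86 TPM in replicate 1 and 14.38 TPM in replicate 2. For both genes replicate 1 was slightly higher, with intervals apart. Smad9, the remaining BMP receptor Smad gene, had 0.48 TPM from 63 counts in replicate 1 and 0.75 TPM from 102 counts in replicate 2, with replicate 2 higher and intervals apart. Smad1 exceeded Smad5 by 2.92-fold (log2 ratio 1.55 ± 0.06, SD, n = 2) and Smad9 by 78.1-fold (6.29 ± 0.61, SD, n = 2), and Smad5 exceeded Smad9 by 26.7-fold.

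Of the receptor Smads for TGF-beta and activin, Smad2 had 36.00 TPM in replicate 1 and 33.29 TPM in replicate 2. Smad3 had 7.81 TPM in replicate 1 and 6.41 TPM in replicate 2, and Smad2 exceeded it by 4.89-fold (log2 ratio 2.29 ± 0.12, SD, n = 2). The common Smad4 was at 8.71 TPM in replicate 1 and 7.60 TPM in replicate 2. It lay below Smad1, Smad2 and Smad5 with intervals apart in both libraries, and was not separated from Smad3. The log2 ratio of Smad4 over Smad2 was -2.09 ± 0.06 (SD, n = 2). The replicates overlapped for Smad2, Smad3 and Smad4. Summed, the 3 BMP receptor Smads exceeded the 2 of TGF-beta and activin by 1.57-fold in replicate 1 (68.95 TPM against 43.81 TPM) and by 1.47-fold in replicate 2 (58.51 TPM against 39.70 TPM). That order is opposite to the order of the type I receptor sums in the same libraries.

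The inhibitory Smads, which are feedback targets of the pathway, were low. Smad7, which blocks both branches, had 1.68 TPM in replicate 1 and 1.56 TPM in replicate 2. Smad6, which acts mainly on BMP signaling, had 1.19 TPM in replicate 1 and 1.31 TPM in replicate 2. Neither differed between replicates beyond the deposited intervals, and the genes were not separated from each other. Of the 7 steps between neighbouring Smad genes, 5 were resolved in both libraries. Smad1 stood above Smad2, Smad2 above Smad5, Smad5 above Smad4, Smad3 above Smad7 and Smad6 above Smad9.

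**Figure D2:**
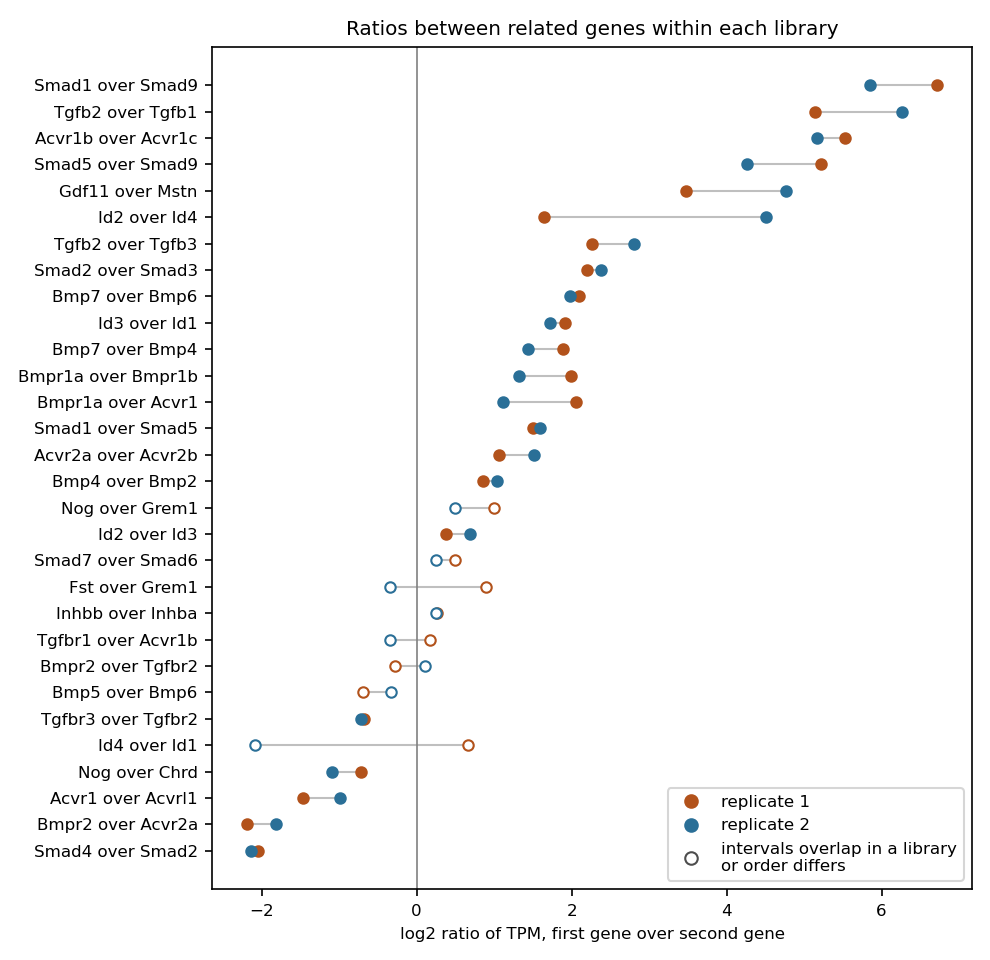
Ratios of TPM between 30 combinations of related genes on a log2 scale, first gene over second gene, with replicate 1 in orange and replicate 2 in blue. Filled points mark the 22 combinations whose intervals were apart in both libraries with the same sign; Id2 over Id4 and Id4 over Id1 have the widest gaps between replicates, at 1.64 in replicate 1 and 4.50 in replicate 2 for Id2 over Id4, and 0.66 in replicate 1 and -2.09 in replicate 2 for Id4 over Id1.

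Id2 and Id3 were the most abundant members in both libraries. The Id genes encode helix-loop-helix proteins that lack a DNA-binding region and sequester E proteins. Id2 (chromosome 12, 25093799 to 25097140) had 234.72 TPM in replicate 1 and 305.35 TPM in replicate 2, higher than 97.5% of protein-coding genes by its mean. Id3 (chromosome 4, 136143497 to 136145755) had 179.73 TPM in replicate 1 and 188.94 TPM in replicate 2. Id1 (chromosome 2, 152736251 to 152737410) had 47.65 TPM in replicate 1 and 57.27 TPM in replicate 2. Replicate 2 was higher for all 3 genes, with intervals apart for Id1 and Id2 and overlapping for Id3. Id2 exceeded Id3 by 1.45-fold (log2 ratio 0.54 ± 0.22, SD, n = 2), and Id3 exceeded Id1 by 3.53-fold (1.82 ± 0.14, SD, n = 2). For Id2 in replicate 2 the deposited TPM lay above its own interval, which ended at 304.8 TPM. It was the exception among the 43 genes.

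Id4 went the other way. Id4 (ENSMUSG00000021379.1, chromosome 13, 48261228 to 48266026, plus strand) had 75.41 TPM from 2955 counts in replicate 1 and 13.45 TPM from 540 counts in replicate 2. The deposited intervals, 71.0 to 76.3 TPM in replicate 1 and 12.1 to 14.3 TPM in replicate 2, did not come near each other. The scaled count ratio of replicate 1 over replicate 2 was 5.41-fold, with a 95% counting interval from 4.94 to 5.95. Id4, which encodes an Id protein of neural progenitors and astrocytes, thus ranked above Id1 in replicate 1 and below it in replicate 2, with a log2 ratio of Id4 over Id1 of 0.66 in replicate 1 and -2.09 in replicate 2. Id2 exceeded Id4 in both libraries, with a log2 ratio of 1.64 in replicate 1 and 4.50 in replicate 2, so that its mean fold of 8.41 moved by over 1.5 times when either library was left out. Id4 had a single quantified transcript, which is annotated as protein-coding. Id4 shares 82 of its 3849 exonic bases with the antisense gene A330033J07Rik, which had 1.03 TPM in replicate 1 and 0.60 TPM in replicate 2.

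Inhibitor genes were low and close together. Chrd, which encodes the BMP-binding protein chordin, had 4.98 TPM in replicate 1 and 5.04 TPM in replicate 2. Bambi, a pseudoreceptor gene without a kinase, had 3.78 TPM in replicate 1 and 3.76 TPM in replicate 2. The replicates were nearly equal for both, and Chrd stood above Bambi with intervals apart in each library, the one step of 4 resolved in this class. Chrd shares 239 of its 6258 exonic bases with Thpo on the opposite strand, which had 1.21 TPM in replicate 1 and 0.86 TPM in replicate 2. The noggin gene Nog had 3.02 TPM in replicate 1 and 2.36 TPM in replicate 2, and the gremlin gene Grem1 had 1.51 TPM in replicate 1 and 1.68 TPM in replicate 2. Both encode BMP-binding proteins, and their replicates overlapped. The log2 ratio of Nog over Chrd was -0.91 ± 0.26 (SD, n = 2). Fst, which encodes the activin-binding protein follistatin, had 2.81 TPM from 158 counts in replicate 1 and 1.32 TPM from 76 counts in replicate 2, with intervals apart. Fst and Grem1 changed places between libraries, with a log2 ratio of 0.90 in replicate 1 and -0.35 in replicate 2.

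Transcript shares were examined because a gene's TPM can come from transcripts with no complete reading frame. A transcript annotated as protein-coding held the largest share of TPM in 42 of the 43 genes in both replicates. In 38 genes coding transcripts held at least 90% of TPM in both. The matching shares over all protein-coding genes are not given here, so these counts are not read as particular to the 43 genes. No gene changed its leading transcript between replicates. Genes with a single quantified transcript, among them Id2, Id4, Nog and Fst, could not differ in lead or share. The exception to a coding lead was Tgfb2. Its retained-intron transcript Tgfb2-205, of 898 bases, held 42.42% of TPM in replicate 1 and 43.80% in replicate 2. The coding transcript Tgfb2-201, of 5116 bases, held 34.95% in replicate 1 and 31.69% in replicate 2. Counted as reads the order was reversed, with 70.2% of the gene's counts on Tgfb2-201 in replicate 1 and 65.9% in replicate 2, while Tgfb2-205 took 13.6% in replicate 1 and 14.5% in replicate 2. Coding transcripts of Tgfb2 summed to 13.25 ± 0.40 TPM (SD, n = 2), against 30.10 ± 0.37 TPM (SD, n = 2) over all its transcripts.

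Several receptor and Smad genes divided their TPM between transcripts with different reading frames. Tgfbr2-201, with a coding sequence of 1701 bases, held 66.22% of TPM in replicate 1 and 61.68% in replicate 2, and Tgfbr2-202, with 1776 bases, held the rest. Acvr2b-202, with a coding sequence of 1608 bases, held 75.49% in replicate 1 and 79.44% in replicate 2, and Acvr2b-201, with 1584 bases, held the rest. Smad2-205, the transcript with a coding sequence of 1401 bases, held 66.75% in replicate 1 and 69.43% in replicate 2, while Smad2-203, with 1302 bases, held 29.30% in replicate 1 and 28.31% in replicate 2. The longer frame led in Acvr2b and Smad2 and the shorter one in Tgfbr2. In Bmp4, Acvr1 and Acvrl1 the leading transcripts carried coding sequences of equal length within each gene. Bmp4-202 held 47.55% of TPM in replicate 1 and 47.53% in replicate 2, and Bmp4-201 held 45.18% in replicate 1 and 44.16% in replicate 2. Acvrl1-205 held 57.46% in replicate 1 and 68.87% in replicate 2. Acvr1-203 held 54.06% in replicate 1 and 79.99% in replicate 2, but the deposited intervals of its transcript TPM overlapped, at 1.08 to 2.87 TPM in replicate 1 and 1.88 to 3.91 TPM in replicate 2. Acvr1c-205, a transcript of 392 bases, held 54.57% of the low Acvr1c level in replicate 1 and 34.67% in replicate 2, from under 2 counts in each. Fst-201 was the only quantified transcript of Fst and so held 100% of it in each replicate.

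**Figure D3:**
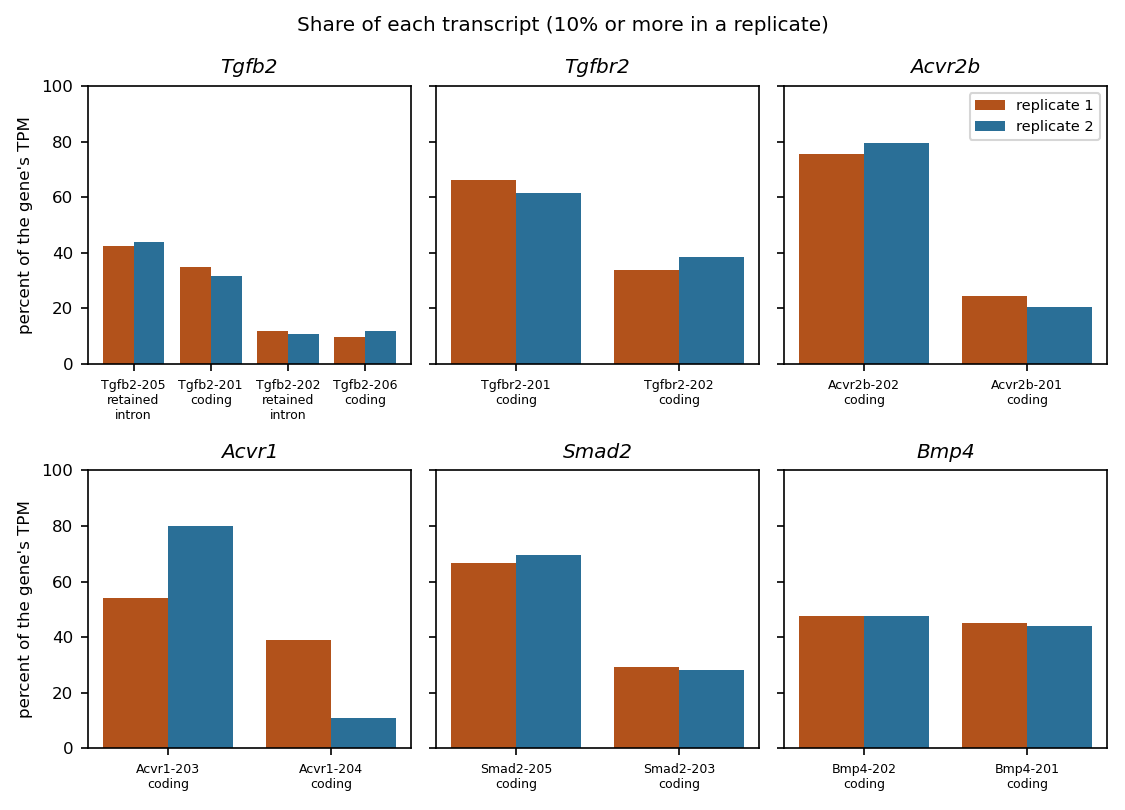
Percent of each gene's TPM held by its transcripts in 6 genes, with replicate 1 in orange and replicate 2 in blue; transcripts with 10% or more in a replicate are drawn, with the annotated type under each name. In Tgfb2 the retained-intron transcript stands highest, at 42.42% in replicate 1 and 43.80% in replicate 2, and in the other 5 genes coding transcripts lead.

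Genes of the pathway beyond the 43 were taken from 6 lists with 96 names, of which 94 were measured. Of these, 70 reached 1 TPM in both replicates, a level that 63.5% of all protein-coding genes reached. All 18 Smad regulators did, led by Fkbp1a, whose product FKBP12 binds type I receptors, at 566.82 TPM in replicate 1 and 554.14 TPM in replicate 2, and by the Smad-interacting repressor gene Zeb1 at 32.73 TPM in replicate 1 and 37.82 TPM in replicate 2. Tab1, an adaptor gene of the TAK1 branch, had 32.26 TPM in replicate 1 and 29.67 TPM in replicate 2, and Zeb2, a relative of Zeb1, had 30.02 TPM in replicate 1 and 24.67 TPM in replicate 2. Of 18 other ligand genes, 5 did, with Gdf10 highest at 24.57 TPM in replicate 1 and 26.11 TPM in replicate 2, close to the level of Tgfb2. Inha, the inhibin subunit gene, had 15.69 TPM in replicate 1 and 15.00 TPM in replicate 2. Ligands outside the 43 were thus mostly not detected, whereas genes listed as antagonists mostly were, as were protein-coding genes in general.

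Of 18 further genes listed as secreted antagonists, 15 were detected, and the RNA levels of the 4 highest lay well above those of the 5 inhibitors described before. Whether their products act as antagonists in this tissue was not tested. Fstl1 had 93.25 TPM in replicate 1 and 68.75 TPM in replicate 2. The proteoglycan gene Dcn had 69.47 TPM in replicate 1 and 56.91 TPM in replicate 2, Fstl5 had 52.45 TPM in replicate 1 and 55.01 TPM in replicate 2, and Nbl1 had 48.43 TPM in replicate 1 and 36.53 TPM in replicate 2. Dcn is also one of the 10 meningeal markers. Of 18 genes of ligand processing and latency, 14 were detected, among them the proteinase gene Bmp1 at 24.15 TPM in replicate 1 and 17.45 TPM in replicate 2. Of 7 other receptors and co-receptors, 5 were, led by the BMP co-receptor gene Rgmb at 49.37 TPM in replicate 1 and 40.54 TPM in replicate 2 and the endothelial co-receptor gene Eng at 33.13 TPM in replicate 1 and 28.63 TPM in replicate 2.

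Of 16 other target genes, 13 were detected. The homeobox gene Msx1 had 25.64 TPM in replicate 1 and 24.16 TPM in replicate 2, Hey1 had 27.30 TPM in replicate 1 and 25.36 TPM in replicate 2, and the cyclin-dependent kinase inhibitor gene Cdkn1a had 136.33 TPM in replicate 1 and 178.92 TPM in replicate 2. Over 2-fold apart between replicates was 1 of the 72 genes of these lists that averaged at least 1 TPM, the collagen gene Col1a1, at 230.75 TPM in replicate 1 and 88.04 TPM in replicate 2. It also stands on the meningeal list. None of the 72 was over 2-fold higher in replicate 2, and 1.51% of protein-coding genes at that level were over 2-fold apart either way.

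Between the pools, 38 of the 43 genes had a mean of 1 TPM or more and were compared by scaled counts. Over 2-fold higher in replicate 1 were 2 of them, Id4 and Fst, against 1.11% of the 13843 protein-coding genes at that level, and none was over 2-fold higher in replicate 2, against 0.397%. Fst was at the limit, with a ratio of 2.05-fold and a 95% counting interval from 1.56 to 2.74. Among the other 36 genes, the largest ratios were those of Bmpr1a, at 1.67-fold (95% counting interval 1.56 to 1.78), and Acvr2b, at 1.64-fold (1.45 to 1.85). By deposited intervals that did not overlap, 13 of the 38 were higher in replicate 1 (34.2%), against 22.3% of protein-coding genes, and 2 were higher in replicate 2 (5.26%), against 9.07%. The 13 were Bmp3, Bmp6, Bmp7, Tgfb3, Bmpr1a, Tgfbr1, Acvr2a, Acvr2b, Tgfbr2, Smad1, Smad5, Fst and Id4, and the 2 were Id1 and Id2. Scaled counts were higher in replicate 1 at any size for 28 of the 38 (73.7%), against 53.1% of protein-coding genes. The median log2 ratio of replicate 1 over replicate 2 was 0.16 over the 38 genes and 0.02 over all protein-coding genes compared.

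Direction depended on scaling for genes near equality. Scaling by spike-in totals shifts every log2 ratio by -0.45, which changed the sign of 21 of the 43 genes. Among these were 5 of the 13 genes above, Bmp6, Acvr2a, Tgfbr2, Smad1 and Smad5, so that their direction holds relative to other genes only. Of the protein-coding genes over 2-fold apart, 27.5% were on the side of replicate 1 under spike-in scaling, against 73.7% under TMM scaling, a trimmed mean over all genes. Under spike-in scaling Id4 remained over 2-fold, at a log2 ratio of 1.99, and Fst, at 0.59, did not. Over all scalings tried Id4 ranged from 3.96-fold to 5.60-fold.

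**Figure D4:**
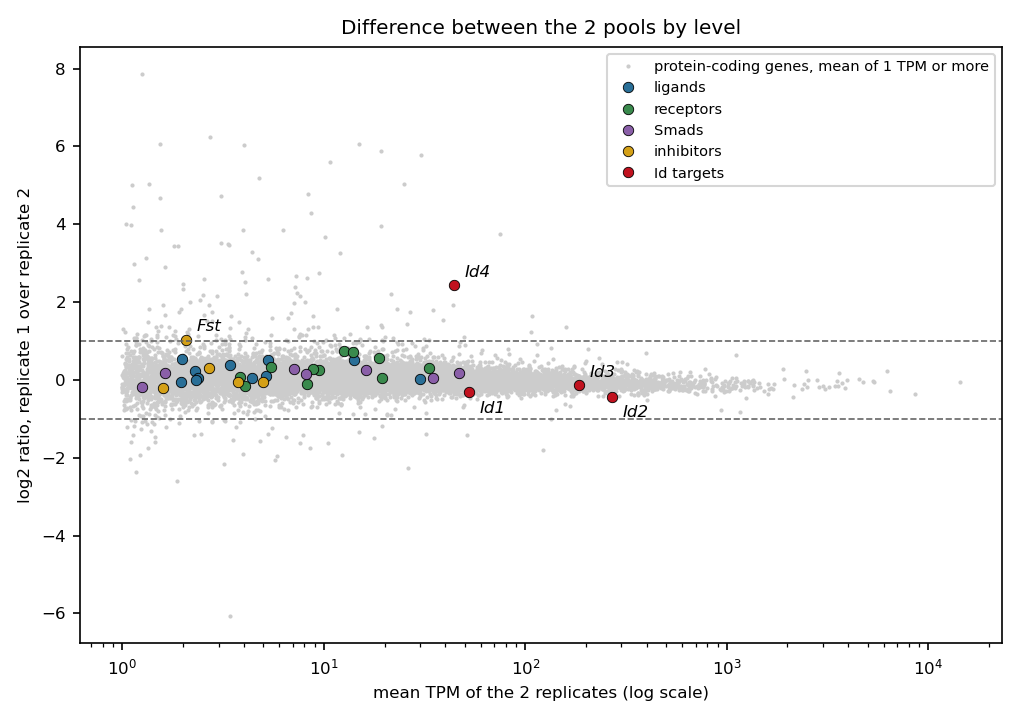
Log2 ratio of replicate 1 over replicate 2 against mean TPM on a log scale, with 13843 protein-coding genes in grey and the 38 compared genes coloured by class; dashed lines mark 2-fold. Id4, at 2.44, stands above the upper line, Fst lies on it at 1.04, and Id1, Id2 and Id3 lie below 0.

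The ratio of Id4 was uncommon among genes selected by mean level. Of 9165 protein-coding genes that averaged at least 10 TPM, 10 had a ratio at least as large in that direction, Id4 among them. The other 9, named after their values were seen, were Tnnt3, Tnni2, Acta1, Mylpf, Myl1, Sln, Actc1, Tnnc2 and Ckm, all genes of striated muscle. Their ratios ran from 9.54-fold for Tnnt3 to 66.2-fold for Ckm, which had 29.32 TPM in replicate 1 and 0.42 TPM in replicate 2. These 9 genes were all below 10 TPM in replicate 2, so they met that mean through replicate 1 alone. Id4 was above 10 TPM in both replicates. When restricted to the 3828 protein-coding genes with a mean as high as that of Id4, the count was 2, Id4 and Acta1.

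Markers of cell types differed between the pools in both directions. Of the 12 muscle and cartilage markers, 10 averaged at least 1 TPM, and 9 of these were over 2-fold higher in replicate 1. The median log2 ratio of the 10 was 3.60. Only 5 of the 12 reached 1 TPM in both replicates. The others compared met the mean through replicate 1 alone, so the filter favoured that direction. None of the 12 muscle and cartilage markers was at 0 in either replicate. All 9 compared meningeal markers were higher in replicate 1, with a median log2 ratio of 0.51, and the whole list of 10 summed to 853.9 TPM in replicate 1 and 495.7 TPM in replicate 2. The forebrain marker Dlx1 had 7.94 TPM in replicate 1 and 0.07 TPM in replicate 2. Cell cycle markers had a median log2 ratio of 0.26 over 10 genes, and endothelial and pericyte markers 0.12 over 12 genes. Astrocyte and radial glial markers had a median log2 ratio of -0.19 and a list sum that came to 2945 TPM in replicate 1 and 3595 TPM in replicate 2. Of these 10 markers, 3 were higher in replicate 1, Vim, Nes and Sox9, and 2 were over 2-fold higher in replicate 2, Gfap, at 4.03 TPM in replicate 1 and 13.00 TPM in replicate 2, and Aqp4, at 12.13 TPM in replicate 1 and 26.77 TPM in replicate 2. Medians below 0 were also found for choroid plexus markers, at -0.15, microglial markers, at -0.16, and neuronal markers, at -0.06. Hindbrain neural markers stood at -0.01. The part of these cell types in the ratios of Id4, Fst, Bmpr1a, Acvr2b, Bmp7 and the other genes was not tested.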

How the data were processed

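The authors quantified each library against mm10 with GENCODE M4, per the deposited notes, with a tool not given in the sources used here. Deposited per gene and transcript were expected counts, which need not be whole, TPM, FPKM and interval bounds on TPM, used here as scores, per the file headers. Isoforms were read from the percent of gene TPM that the authors deposited per transcript. Per the labels, RNA was extracted with Ambion mirVana, 10 ng entered each library and spike-ins were added, which took 2.18% of expected counts in replicate 1 and 1.60% in replicate 2. Gene names and coordinates were joined from GENCODE M21 (GRCm38) by identifier without version, which matched 42462 of 43346 genes. Unmatched identifiers took 0.173% of the counts of replicate 1 and 0.171% of those of replicate 2, and features named by a bare number took 4e-05% in replicate 1 and 4.99e-05% in replicate 2. Gdf1 and Cripto were not matched and are not analysed here. Promoter windows are from RefSeq on GRCm38.p6, and protein sequences are not used here.

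Expected counts were rounded, spike-ins were left out, and edgeR 4.0.16 under R 4.3.3 gave TMM factors over all genes. Ratios used a prior count of 0.5. DESeq2 1.42.0 gave alternative size factors. Counting intervals are exact Clopper-Pearson at 95%, from SciPy 1.17.1. The ratio step was run on simulated counts, with changes in both directions among genes of high mean count only. That run does not cover genes with low counts such as Gdf7, Mstn and Tgfb1. The biological coefficient of variation was 15.7%, from 17947 genes that had 10 or more counts in each library. The members and lists were chosen with earlier results of these data known. All 43 genes are named, and of each other pathway list up to 4 genes with the highest mean and those over 2-fold apart with intervals apart, of each marker list up to 3 with the highest mean, and isoforms of genes with a lead that is noncoding, under 60% or different between replicates, and of Fst. Orc4, Txndc5, Thpo, A330033J07Rik, Gfap, Aqp4, Nes, Sox9 as a glial marker, the Tgfbr2, Acvr2b and Smad2 transcripts and the muscle genes beside Id4 lie outside it and were chosen after seeing their values. Values of some genes on the marker lists, which enter the list sums, are left out of the text.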

Additional observations from a re-analysis of the deposited data

How the results depend on the processing

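At a minimum of 5 TPM, 19 genes were detected in place of 38. In FPKM the class medians were 1.43 for ligands, 5.60 for receptors, 4.59 for Smads, 75.4 for Id genes and 1.62 for inhibitors, a change of unit. With protein-coding transcripts alone the Id median was 119 TPM, against 125 TPM. Over 2-fold apart between pools was 1 gene under spike-in totals, 4 with no filter on low values, which adds Tgfb1 and Mstn, 1 at a mean of 5 TPM and, at a limit of 1.5-fold, 4. Over protein-coding genes the count of 209 became 1826 with no filter, 84 at 5 TPM and 622 at 1.5-fold. Leaving out a replicate could not turn a called gene ratio, since its sign was the same in both libraries by rule. Among 120 recomputed gene ratios no called one turned direction. Of those not called, Tgfbr1 over Acvr1b and Id4 over Id1 turned to 0.17 and 0.66 without replicate 2, and Bmpr2 over Tgfbr2 and Fst over Grem1 to 0.11 and -0.35 without replicate 1 (log2). No ratio between replicates over 2-fold turned direction among 258 recomputed. Only ratios over 2-fold were judged in this way, and 23 genes below that limit changed sign under some scaling. Leaving out a replicate gave 38 detected genes either way and 24 to 28 called gene ratios. The order of levels, with that alternative chosen after seeing the data, gave 20 to 21 resolved steps. No paired analysis was possible because there is 1 group. Leaving out a replicate could not be run for the difference between pools, which needs both. Low counts limit Tgfb1, Mstn and Gdf7.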
